A study of Mus musculus with 35 samples.

Results

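Tm4sf1 and 9 further genes of the cell surface, the actin cytoskeleton and cell adhesion (Flnc, Capg, Tgm1, Anxa2, S100a10, Fam129b, Jup, Itga5 and Hspg2) were followed in the hippocampus after status epilepticus. The 10 members, of 32544 genes in the files, were chosen by symbol on their measured difference between kainic acid (KA) and PBS mice in these same libraries, at both times and in both library types. Every KA against PBS value of a member is therefore a description: how many members a fit called is given only beside the share of all genes called, and supports nothing about the members. Comparisons of m6A with input libraries, within a group or the same mice, were not the contrast that chose the members and were tested. The levels they compare did enter that choice, so these tests are not independent of it.

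The study asked how N6-methyladenosine (m6A), a methyl mark on RNA, is distributed in the hippocampus of a mouse model of temporal lobe epilepsy. Young adult male C57BL/6JOlaHsd mice received KA, a glutamate receptor agonist, or PBS into the amygdala (IAKA and IA-PBS). Per the study's methods lorazepam was then given against the seizures, and hippocampi were collected at 24 hours (acute) or 2 weeks (chronic). Total RNA of a mouse was sequenced as its input library and an m6A-immunoprecipitated fraction as its m6A library. Some mice have only the m6A library among the labelled samples. The m6A libraries came from 5 KA and 3 PBS mice at 24 hours and from 6 KA and 5 PBS mice at 2 weeks. Input libraries with at least 100000 counts came from 3 KA mice and 1 PBS mouse at 24 hours and from 6 KA and 3 PBS mice at 2 weeks.

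Total counts ran from 1652933 to 34564536 in the 19 m6A libraries and from 3057578 to 12694434 in the 13 input libraries used, and 3 input libraries of 3171 to 34486 counts were left out. Both libraries of KA mouse 8 (24 hours) stood apart, with 17.4% of input counts and 16.4% of m6A counts on mitochondrial genes, as did the m6A library of KA mouse 6 (2 weeks) at 17.5%. The column names carry a prefix 3, 4 or 5, called the library set below, whose meaning is not stated. Markers of hippocampal cell types were present in every group, and the markers at 0 in a whole group were Plac8 (m6A, PBS, 2 weeks) and Plac8 and Cd3e (input, PBS, 2 weeks), all of leukocytes. Levels are in CPM, the count of a gene relative to the total count of its library, scaled by the trimmed mean of M values (TMM). In whole tissue, fewer cells of a type and less RNA per cell cannot be told apart.

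The proteins these genes encode meet at the plasma membrane, where actin filaments, intermediate filaments and the extracellular matrix are joined. Integrins bind matrix proteins such as fibronectin outside the cell and pass force to actin through adaptor proteins, while junction proteins join neighboring cells. In injured brain, reactive astrocytes, endothelial cells and phagocytes are known to rebuild their cytoskeleton and matrix contacts. Several members are best known from other tissues: Flnc from muscle, Tgm1 and Jup from skin and heart.

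On the mm10 assembly (GRCm38.p6, RefSeq), Tm4sf1 lies at chr3:57285611-57387736, Anxa2 at chr9:69453683-69491792, S100a10 at chr3:93555117-93564645 and Flnc at chr6:29433153-29461889. The remaining members lie at chr6:72538282-72562983 (Capg), chr14:55700009-55713921 (Tgm1), chr2:32876134-32925253 (Fam129b, listed as Niban2), chr11:100368856-100397839 (Jup), chr15:103344286-103366791 (Itga5) and chr4:137468751-137570630 (Hspg2). RefSeq promoter windows were given for 9 of the 10 members, and the 250 bases upstream of each start were searched on both strands for the AP-1 letters TGANTCA, the TEAD letters CATTCC, the STAT letters TTCNNNGAA and the CArG box. Among 32851 windows of that length, 6.75% held the AP-1 letters, 12.6% the TEAD letters, 7.02% the STAT letters and 1.47% a CArG box. AP-1 letters were found before a start of Anxa2, STAT letters before a start of Tgm1 and TEAD letters before a start of Flnc (1 member each). No member window held a CArG box. Some starts lie inside the gene intervals given above, among them those used for Tm4sf1, for Tgm1 and for the Flnc match. The Flnc letters (chr6:29433152-29433157) lie 104 bases before such a start, in a window with 183 of its 250 bases in annotated exons. The STAT letters occurred 173 and 64 bases before the Tgm1 start, and the nearer match lies outside the stretch shown. The lines that follow give stretches upstream of the starts used, clear of annotated exons. They are from Tm4sf1, which held none of the 4 motifs, and from Anxa2 and Tgm1, with the AP-1 and the STAT letters in capitals, respectively. They lie at chr3:57302010-57302238 (minus strand), chr9:69453433-69453619 (plus strand) and chr14:55713608-55713742 (minus strand).
Tm4sf1: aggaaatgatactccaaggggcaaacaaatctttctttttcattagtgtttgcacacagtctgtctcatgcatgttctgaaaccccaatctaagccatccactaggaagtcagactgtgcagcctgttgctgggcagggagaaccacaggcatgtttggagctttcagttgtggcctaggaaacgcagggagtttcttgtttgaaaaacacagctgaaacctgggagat
Anxa2: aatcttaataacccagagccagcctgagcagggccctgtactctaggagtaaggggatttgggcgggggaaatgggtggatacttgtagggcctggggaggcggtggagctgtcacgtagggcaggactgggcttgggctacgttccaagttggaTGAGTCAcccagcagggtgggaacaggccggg
Tgm1: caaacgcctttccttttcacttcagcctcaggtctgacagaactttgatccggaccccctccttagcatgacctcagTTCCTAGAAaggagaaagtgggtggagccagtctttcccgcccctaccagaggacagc
A match is a description of letters, and binding was not measured.

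At 24 hours after KA, all 10 members had a higher mean in the m6A libraries of KA mice than of PBS mice, from 1.92-fold for Jup to 13.9-fold for Tgm1 (ratio of mean CPM). The median log2 fold change of the members was 2.25, against 0.09 over all 17440 genes tested. Every KA library was above every PBS library for 7 of 10 members (Tm4sf1, Flnc, Capg, Tgm1, Anxa2, S100a10 and Itga5), a pattern held by 2.68% of all genes. The edgeR quasi-likelihood test across all genes, at an adjusted P under 0.05, called 3 of 10 members higher (Tm4sf1, Anxa2 and S100a10), against 0.172% of all genes. These counts share the contrast that chose the members, and nothing further is read from them.

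**Figure D1:**
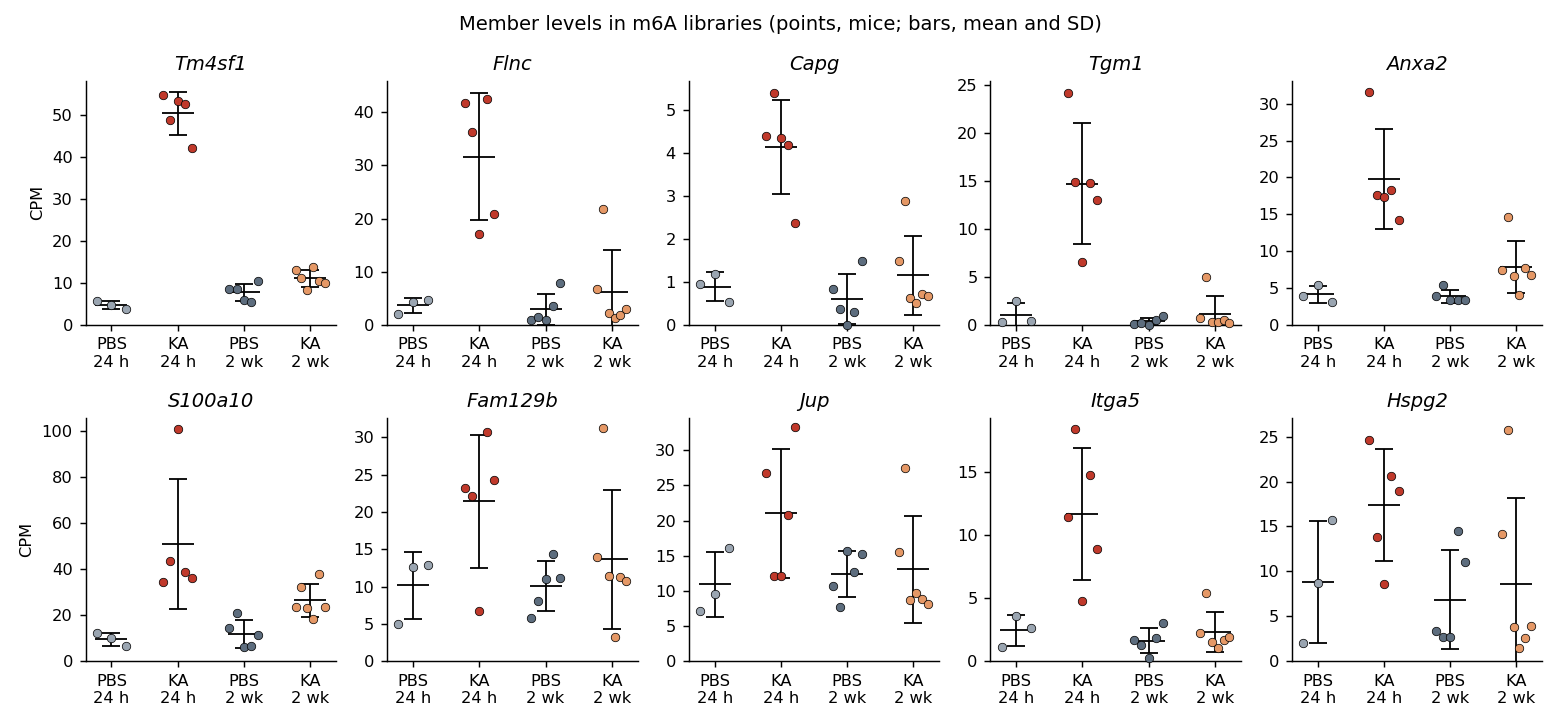
Level of each member (CPM, linear axes from 0) in the 19 m6A libraries by group, with each point a mouse and bars for the group mean and SD (n = 3, 5, 5 and 6 from left to right). At 24 hours the Tm4sf1 points of KA mice lie between 42.1 and 54.9 CPM and those of PBS mice between 3.83 and 5.64 CPM; at 2 weeks a KA point well above the rest recurs in most panels and is mouse 42.

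Tm4sf1 encodes a membrane protein of the L6 family, known from endothelial and tumor cells, where it sits in thin membrane protrusions. Its m6A level at 24 hours was 54.9, 49.0, 53.5, 52.7 and 42.1 CPM in KA mice 67, 79, 8, 97 and 98, and 5.64, 4.73 and 3.83 CPM in PBS mice 1, 71 and 73. Means were 50.4 ± 5.14 CPM in KA mice (SD, n = 5) and 4.73 ± 0.908 CPM in PBS mice (n = 3), so KA mice lay close together and far from the controls. On the log2 scale the difference was 3.41 with an SE of 0.28, and values after ± on that scale are SEs. KA mouse 8, which stood apart in mitochondrial share, fell within the range of the other KA mice. Mice 67 and 98, whose m6A libraries were the shallowest, held the highest and the lowest of the KA values. At 2 weeks the KA level ran from 8.24 to 13.7 CPM with a median of 10.8. PBS mice 2, 3, 4, 50 and 78 held 8.46, 8.48, 6.00, 5.46 and 10.3 CPM. The 2-week groups overlapped (log2 fold change 0.52 ± 0.20), although 4 of 6 KA libraries were above every PBS library.

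Flnc, filamin C, crosslinks actin filaments and is known from muscle. At 24 hours it stood at 41.7, 36.3, 17.1, 42.5 and 20.8 CPM in KA mice 67, 79, 8, 97 and 98 and at 2.05, 4.22 and 4.73 CPM in PBS mice 1, 71 and 73, with no overlap and a log2 fold change of 3.11 ± 0.90. At 2 weeks the KA libraries ran from 1.30 to 21.8 CPM with a median of 2.56, and the PBS libraries held 0.902, 1.48, 0.923, 3.44 and 7.85 CPM (mice 2, 3, 4, 50 and 78). Only KA mouse 42, at 21.8 CPM, was above all of these controls.

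Capg, a gelsolin-type protein that caps the growing ends of actin filaments and is abundant in macrophages, was the member with the lowest mean CPM at 24 hours. KA mice 67, 79, 8, 97 and 98 held 4.39, 5.404, 4.35, 4.17 and 2.37 CPM and PBS mice 1, 71 and 73 held 0.953, 1.18 and 0.525 CPM. The value of mouse 98 rested on 4 counts and that of mouse 67 on 10, so their counting error is large. The groups did not overlap and the log2 fold change was 2.23 ± 0.74. At 2 weeks KA libraries ran from 0.504 to 2.88 CPM and PBS libraries from 0 to 1.49 CPM, and they overlapped.

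Tgm1 encodes a transglutaminase that crosslinks proteins beneath the membrane of skin cells. It went from 0.293, 2.499 and 0.375 CPM in PBS mice 1, 71 and 73 to 24.2, 14.9, 6.52, 14.8 and 13.1 CPM in KA mice 67, 79, 8, 97 and 98 at 24 hours. That was the largest log2 fold change among the members in these libraries and also the least precise, 3.69 ± 1.09, with PBS mouse 71 standing above the other controls. At 2 weeks 5 of the 6 KA libraries were between 0.135 and 0.739 CPM, within the range of the PBS libraries (0 to 0.894 CPM), and mouse 42 stood at 4.94 CPM.

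Anxa2 and S100a10 encode the subunits of a single complex: annexin A2 binds membrane phospholipids in the presence of calcium and also binds actin, and S100A10 links annexin A2 molecules and binds plasminogen. Anxa2 stood at 31.6, 17.5, 17.4, 18.3 and 14.2 CPM in KA mice 67, 79, 8, 97 and 98 and at 3.88, 5.404 and 3.08 CPM in PBS mice 1, 71 and 73 (log2 fold change 2.25 ± 0.38). S100a10 stood at 34.7, 43.6, 101.2, 38.9 and 36.2 CPM in the same KA mice and at 12.2, 10.1 and 6.60 CPM in the same PBS mice (2.41 ± 0.45). Neither gene overlapped between the groups. For S100a10, mouse 8 was more than 2 times any other KA mouse, and without its m6A library the log2 fold change was 1.97 ± 0.38. In both genes the KA mean stayed above the PBS mean at 2 weeks, by 1.01 ± 0.30 for Anxa2 and 1.14 ± 0.34 for S100a10 on the log2 scale. For each of them 5 of 6 KA libraries were above every PBS library, as the next values show. Anxa2 ran from 4.00 to 14.6 CPM in KA mice (median 7.07) and held 3.95, 5.399, 3.38, 3.33 and 3.38 CPM in PBS mice 2, 3, 4, 50 and 78. S100a10 ran from 18.6 to 38.0 CPM in KA mice (median 23.6) and held 14.5, 21.2, 6.46, 6.55 and 11.4 CPM in the same PBS mice. In both genes the KA library inside the control range was that of mouse 6.

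Fam129b, Jup and Hspg2 differed least at 24 hours and were the 3 members whose groups overlapped. Fam129b, also called Niban2, encodes a membrane-associated protein found at cell junctions. It was at 23.3, 22.2, 6.71, 30.7 and 24.3 CPM in KA mice 67, 79, 8, 97 and 98 and at 4.98, 12.6 and 12.9 CPM in PBS mice 1, 71 and 73 (log2 fold change 1.07 ± 0.55), so that mouse 8 alone among the KA mice fell inside the control range. Jup encodes junction plakoglobin, which ties cadherins to the cytoskeleton in desmosomes and adherens junctions. Its KA values of 26.8, 12.2, 12.1, 20.8 and 33.2 CPM met PBS values of 7.18, 9.59 and 16.1 CPM (0.90 ± 0.44), with mice 79 and 8 below PBS mouse 73. Hspg2 encodes perlecan, a heparan sulfate proteoglycan of basement membranes. Hspg2 values of 24.6, 13.9, 8.60, 20.7 and 18.99 CPM in KA mice met PBS values of 2.05, 8.71 and 15.7 CPM (0.96 ± 0.83), and mice 79 and 8 were again below PBS mouse 73. At 2 weeks the KA range contained or reached the PBS range for all 3, with medians of 11.3 against 11.1 CPM for Fam129b, 9.29 against 12.7 CPM for Jup and 3.85 against 3.33 CPM for Hspg2.

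Itga5 encodes the alpha subunit of the fibronectin-binding integrin. It stood at 11.4, 18.4, 4.82, 14.8 and 8.90 CPM in KA mice 67, 79, 8, 97 and 98 and at 1.17, 3.58 and 2.63 CPM in PBS mice 1, 71 and 73 at 24 hours, with no overlap (log2 fold change 2.25 ± 0.61). At 2 weeks 5 of 6 KA libraries (1.08 to 2.28 CPM) lay within the PBS range of 0.308 to 3.08 CPM, and mouse 42 stood above it at 5.45 CPM.

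The number of members called at 24 hours depended on single libraries: without any of PBS mice 1, 71 and 73 or KA mice 79 and 97 it was 1 (Tm4sf1) in place of 3. Over all genes edgeR then called 1 without any of these PBS mice and 4 without either of these KA mice. DESeq2 called 6 of 10 members (Tm4sf1, Flnc, Tgm1, Anxa2, S100a10 and Itga5), against 202 of all 17440 genes tested.

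At 2 weeks all 10 members still had a higher mean in KA than in PBS m6A libraries, but by less: the median log2 fold change was 0.74, against 0.01 over all genes, and ranged from 0.08 (Jup) to 1.74 (Tgm1). For 0 of 10 members was every KA library above every PBS library, a pattern held by 0.516% of all genes. edgeR called 0 of 10 members, against 0.00573% of all genes higher. The gene that edgeR called was Acvr1c, named after its value was seen. An unadjusted P from edgeR under 0.05 was held by 3 members and by 710 of all 17440 genes tested. DESeq2 also called 0 members, and 15 genes in all. KA mouse 42 held the highest value for 8 of 10 members (all but Tm4sf1 and S100a10), and mouse 6 the lowest for 7. Without the m6A library of mouse 42 the median of the members fell from 0.74 to 0.03 and 6 of 10 stayed above 0. Then Flnc lay just below 0, Fam129b at -0.01, Jup at -0.30 and Hspg2 at -0.44, whereas Tm4sf1 (0.50 ± 0.21), Anxa2 (0.71 ± 0.26) and S100a10 (1.05 ± 0.35) kept higher means in KA mice.

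**Figure D2:**
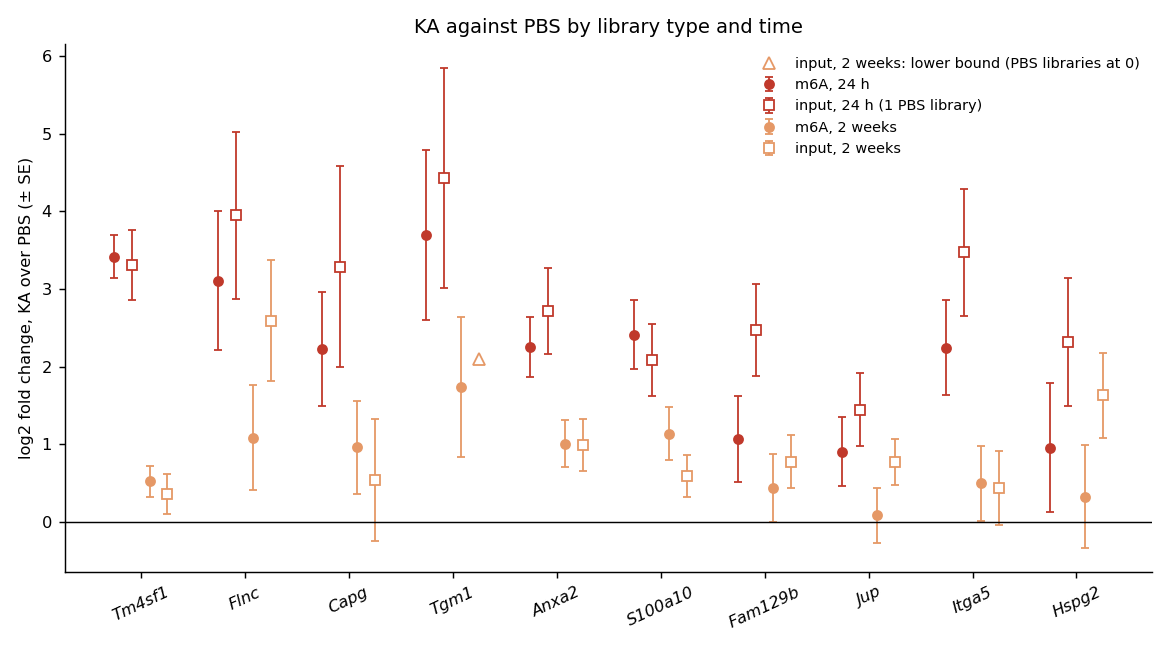
Log2 fold change of KA over PBS with its SE (y axis) for each member (x axis) in m6A (filled circles) and input (open squares) libraries at 24 hours (red) and 2 weeks (orange). The 24-hour values lie above the 2-week values of the same library type for every member with both estimates; the triangle is the lower bound for Tgm1 in input at 2 weeks, where the PBS libraries held 0 counts.

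Comparing the KA mice of the acute and chronic stages directly, every 24-hour m6A library was above every 2-week m6A library for Tm4sf1 and Tgm1, 2 of 10 members, against 0.952% of all genes. In input libraries this held for 5 of 10 members (Tm4sf1, Flnc, Capg, Tgm1 and Itga5), against 2.51% of all genes. For Fam129b and Hspg2 no 24-hour m6A library was above the 2-week library of mouse 42, at 31.2 and 25.8 CPM.

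The input libraries, which measure total RNA, gave the same order of times. At 24 hours the median log2 fold change of the members was 3.00, against 0.27 over all 17644 genes, and all 3 KA libraries were above the PBS library for 10 of 10 members. With only 1 control library this pattern held for 21.2% of all genes, and the control has no spread of its own. Tm4sf1 was at 63.2, 35.9 and 33.8 CPM in KA mice 67, 8 and 98 and at 4.47 CPM in PBS mouse 1 (log2 fold change 3.31 ± 0.45). Tgm1 was at 25.3, 7.97 and 12.5 CPM against 0.687 CPM (4.43 ± 1.42) and Flnc at 35.2, 17.6 and 24.7 CPM against 1.65 CPM (3.95 ± 1.08). Here mouse 67 was the highest KA mouse for 8 of 10 members, and mouse 8 for Jup and S100a10.

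Itga5 was at 11.97, 5.80 and 8.06 CPM against 0.756 CPM (3.47 ± 0.82), Capg at 4.30, 3.62 and 2.60 CPM against 0.343 CPM (3.28 ± 1.29), and Anxa2 at 22.3, 13.3 and 15.1 CPM against 2.54 CPM (2.72 ± 0.55). The Capg control value rested on 5 counts. Fam129b was at 26.2, 9.18 and 23.7 CPM against 3.50 CPM (2.47 ± 0.59), Hspg2 at 21.5, 16.9 and 14.04 CPM against 3.50 CPM (2.32 ± 0.82), S100a10 at 22.6, 32.7 and 25.2 CPM against 6.32 CPM (2.09 ± 0.46), and Jup at 22.3, 24.996 and 24.2 CPM against 8.72 CPM (1.45 ± 0.47). Jup had the smallest fold change of the members in total RNA as in m6A RNA, with its KA mice close together. With 1 PBS library, the spread in these fits comes from the other groups and the control is assumed to vary like them. The values are therefore given as effect sizes, with no test and no count of calls. With a KA library left out in turn, the median log2 fold change of the members ran from 2.72 to 3.12. That of Tm4sf1 ran from 2.96 to 3.46.

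**Figure D3:**
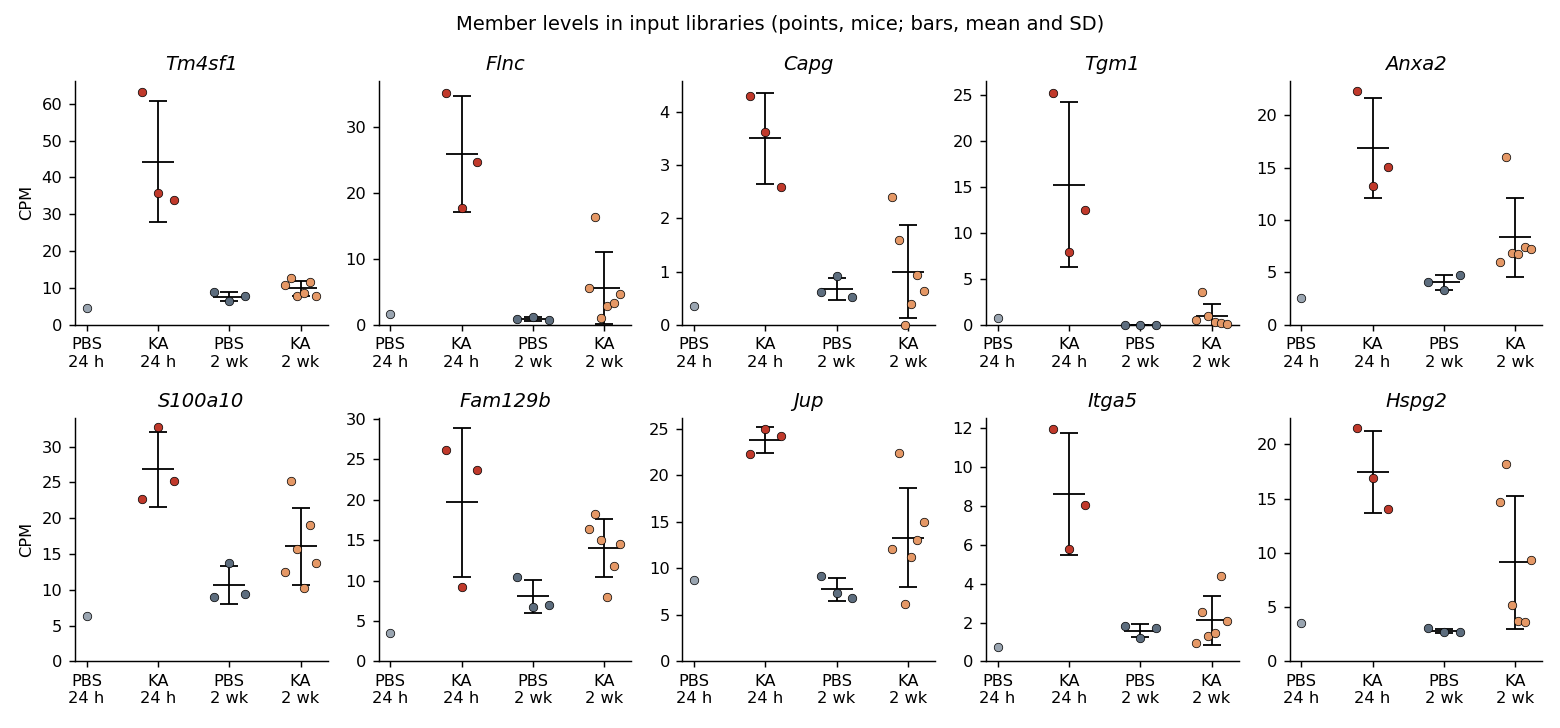
Level of each member (CPM, linear axes from 0) in the 13 input libraries by group, with each point a mouse and bars for the group mean and SD (n = 1, 3, 3 and 6 from left to right; no bar for the PBS group of 1 at 24 hours). All 3 KA points lie above the PBS point at 24 hours in every panel, and Tgm1 lies at 0 in all 3 PBS libraries at 2 weeks.

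At 2 weeks the median log2 fold change in input libraries was 0.77, against 0.01 over all genes, and 10 of 10 members were above 0. Every KA library was above every PBS library for 3 of 10 members, Tgm1, Anxa2 and Hspg2, against 3.05% of all genes. Hspg2 ran from 3.60 to 18.2 CPM in KA mice (median 7.29) and was 3.05, 2.74 and 2.74 CPM in PBS mice 2, 3 and 4 (1.63 ± 0.54). Anxa2 ran from 6.01 to 15.98 CPM (median 7.02) and was 4.07, 3.35 and 4.79 CPM in the same PBS mice (0.99 ± 0.33). Tgm1 was at 0 counts in all 3 PBS libraries and held 21 counts over the 6 KA libraries. Of these, 11 were from mouse 42, and the other KA libraries held 1 to 3 each. Taking 3 counts over the PBS group as the floor (0.218 CPM), its mean of 0.933 CPM was at least 4.27-fold higher. That bound rests largely on mouse 42, without which the KA mean was 0.417 CPM. With Tgm1 at this bound the median of the members stayed at 0.77. Flnc ran from 0.978 to 16.3 CPM in KA mice and was 0.814, 1.22 and 0.684 CPM in PBS mice (2.59 ± 0.78), overlapping through mouse 5 on 3 counts. Tm4sf1 ran from 7.83 to 12.8 CPM against 8.75, 6.39 and 7.70 CPM (0.36 ± 0.25), the smallest fold change among the members at this time. edgeR called 0 of 10 members and 0% of all genes. An unadjusted P from edgeR under 0.05 was held by 7 members and by 1439 of all 17644 genes tested. DESeq2 called 0 members, and 44 genes in all. Mouse 42 was again the highest for 8 of 10 members, and without it the median was 0.65 with 10 of 10 above 0.

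The m6A controls differed by library set. For Flnc, Tgm1, Fam129b, Itga5 and Hspg2 every PBS library of set 4 (mice 71, 73, 50 and 78) was above every PBS library of set 5 (mice 1, 2, 3 and 4), 5 of 10 members against 19.3% of all genes. Hspg2 averaged 12.5 ± 3.19 CPM in set 4 and 2.70 ± 0.523 CPM in set 5 (SD, n = 4 each), a gap larger than that between KA and PBS mice. The means of Tm4sf1 (6.09 ± 2.91 and 7.15 ± 1.54 CPM) and Anxa2 (3.80 ± 1.08 and 4.15 ± 0.867 CPM) overlapped between the sets. Within set 4 at 24 hours (2 KA and 2 PBS libraries), the log2 fold changes were 3.55 ± 0.19 for Tm4sf1, 3.14 ± 0.19 for Flnc and 2.39 ± 0.24 for Itga5. In the same libraries they were 0.51 ± 0.33 for Hspg2 and 0.36 ± 0.35 for Jup. There edgeR called 6 of 10 members (Tm4sf1, Flnc, Capg, Anxa2, S100a10 and Itga5), against 356 of all 16903 genes tested. Within set 5 at 2 weeks (3 KA and 3 PBS libraries) Tm4sf1 was at 0.55 ± 0.29, Flnc at 1.79 ± 0.58, Hspg2 at 1.25 ± 0.61 and Jup at -0.04 ± 0.37, 0 members were called and Tgm1 was too low to be fitted. The KA libraries of set 3 had no PBS library of that set.

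**Figure D4:**
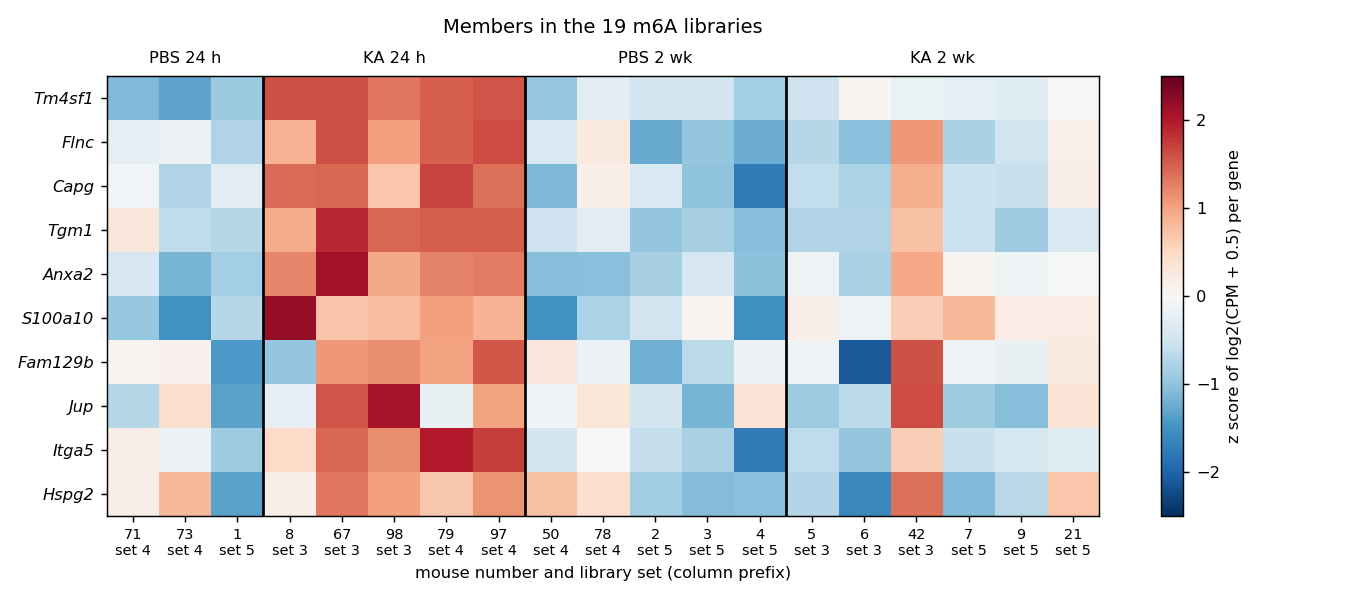
Members (rows) in the 19 m6A libraries (columns, ordered by group and library set), colored by the z score of log2(CPM + 0.5) within each gene. The 5 KA libraries at 24 hours are red for Tm4sf1, Flnc, Capg, Tgm1, Anxa2 and S100a10; KA mouse 42 is red in most rows at 2 weeks, and the set 5 controls are bluer than the set 4 controls for Hspg2.

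Markers of other cell types moved with some of these values, and their part in the results was not tested. The summed level of 8 endothelial markers was 391 to 500 CPM in KA and 243 to 312 CPM in PBS m6A libraries at 24 hours, without overlap, and none of the 8 passed the edgeR test. In input libraries the same sum was 480 to 1460 CPM in KA mice and 793 CPM in the PBS mouse, while 8 of 8 endothelial markers had a log2 fold change above 0 with a median of 1.72, against 0.27 over all genes. The 6 tested pericyte and smooth muscle markers were also all above 0 there, with a median of 1.52. The 9 leukocyte markers summed to 29.0 to 115 CPM in KA and 12.8 to 39.1 CPM in PBS m6A libraries at 24 hours, with mouse 8 at 115 CPM. At 2 weeks the 8 microglial markers summed to 202 to 610 CPM in KA and 152 to 230 CPM in PBS m6A libraries, and the highest value was that of mouse 42. The endothelial sum was 1136 CPM in the 2-week m6A library of KA mouse 6, which held the highest Tm4sf1 level and the lowest level of 7 members, and 288 to 430 CPM in the other KA mice. The input library of mouse 6 did not share this: its endothelial sum of 495 CPM was the lowest of the 2-week KA mice (495 to 997 CPM). Tm4sf1 stood there at 8.54 CPM, below the group median of 9.68 CPM. The 7 pericyte and smooth muscle markers were highest in mouse 42, at 231 CPM against 116 to 180 CPM in the other KA mice. The 7 homeostatic astrocyte markers summed to 1026 to 3028 CPM in KA and 2829 to 3432 CPM in PBS m6A libraries at 24 hours.

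Levels were compared between members per kilobase of the annotated canonical transcript (GENCODE), on the m6A libraries. In PBS mice at 24 hours Jup (3.32 ± 1.40 CPM per kb), Anxa2 (2.85 ± 0.817), S100a10 (2.82 ± 0.823) and Fam129b (2.74 ± 1.21) had the highest m6A levels, and neighbors in that order overlapped. Tm4sf1 followed at 1.48 ± 0.284 CPM per kb and lay above Hspg2 (0.608 ± 0.470), Capg, Itga5, Flnc and Tgm1 (0.383 ± 0.454) without overlapping Hspg2. In KA mice Tm4sf1 was the highest of the 10 at 15.8 ± 1.61 CPM per kb, ahead of S100a10 (14.9 ± 8.27) in 4 of 5 libraries, with overlapping ranges. Anxa2 came next at 13.7 ± 4.69 CPM per kb, and Hspg2 was the lowest at 1.196 ± 0.429. The order of means differed in input libraries of KA mice at 24 hours. There Tm4sf1 was again the highest (13.8 ± 5.14 CPM per kb), but Anxa2 (11.7 ± 3.28) came before S100a10 (7.86 ± 1.53).

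Relatives and partners of the members were taken from 15 lists of 199 further genes, of which 179 passed the filter on low counts. In the m6A libraries at 24 hours 3 of the 179 rose (edgeR, adjusted P under 0.05) and 0 fell, and their median log2 fold change was 0.53 against 0.09 over all genes. The 3 were Emp1, a small membrane protein (7.12 to 17.96 CPM in KA and 1.28 to 2.05 CPM in PBS mice, log2 fold change 2.67 ± 0.42, adjusted P from edgeR 0.0145), Cd44, the hyaluronan receptor (32.0 to 107 against 9.01 to 14.2 CPM, 2.67 ± 0.51, 0.0335), and Osmr, the oncostatin M receptor (18.99 to 44.0 against 6.30 to 10.8 CPM, 1.90 ± 0.37, 0.0360). Without any PBS library of that time in turn, edgeR called no gene but Tm4sf1, so none of the 3 passed. All 3 come from lists of genes known from reactive astrocytes, whose 13 pan-reactive genes had a median of 2.61 (2 passed) and whose 8 tested A2 genes had a median of 1.83 (1 passed).

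Among the family lists of the members themselves edgeR called 0 genes at 24 hours. The 9 tested annexins beside Anxa2 ran from 0.05 to 1.13 on the log2 scale, with a median of 0.52 and 2 under an unadjusted P of 0.05. The 12 tested S100 genes beside S100a10 had a median of 1.26, the 5 transglutaminases beside Tgm1 a median of 1.01, and the 24 integrin subunits beside Itga5 a median of 0.51. The 18 filamins and actin crosslinkers beside Flnc had a median of 0.58, the 15 junction genes beside Jup a median of 0.15 and the 20 matrix ligands and partners of perlecan and the fibronectin receptor a median of 0.42. The 4 other L6 family genes were all too low to be tested. The 9 tested genes known as YAP and TEAD targets had a median of 0.54. At 2 weeks 0 of the 179 genes passed (18 under an unadjusted P of 0.05), with a median of 0.22 against 0.01 over all genes. In the 2-week input libraries no gene of the whole table passed.

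Likeness to Tm4sf1 was measured as Pearson's r of log2 CPM over the 19 m6A libraries, which share KA treatment, time and library set as sources of variation. Among 15595 other genes, the most similar non-members were Klk6 (r = 0.92), Emp1 (0.92), Plaur (0.90), Tnn (0.90), Glipr2 (0.89), Pnoc (0.89), Akr1b8 (0.89) and Mrps6 (0.88). Of the members, Anxa2 came nearest (r = 0.88, rank 8), followed by S100a10 (0.83, rank 29) and Tgm1 (0.81, rank 42), and Fam129b was the farthest (0.40, rank 1447). Once group means were removed, r was lower, at 0.14 for Anxa2, 0.44 for S100a10 and 0.60 for Capg. It was below 0 for Fam129b (-0.38), Hspg2 (-0.15) and Jup (-0.12), and for the non-member Pnoc (-0.21). Over the 13 input libraries r with group means kept was 0.95 for Glipr2, 0.94 for Mrps6, 0.93 for Itga5 and 0.31 for Pnoc. Klk6, a serine protease, showed how the profile looked: 3.76 to 8.35 CPM in KA and 0.150 to 0.473 CPM in PBS mice at 24 hours. Among all 45 pairs of members r had a median of 0.75 in m6A libraries and of 0.79 in input libraries, and of 0.46 and 0.43 after removing group means.

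Whether members were taken up by the m6A pulldown more or less than other RNA was tested by setting m6A against input libraries within a group. edgeR called 0 of 10 members in KA mice at 2 weeks, 0 in KA mice at 24 hours and 0 in PBS mice at 2 weeks, against 1.03%, 0.163% and 0.539% of all 22654 genes tested. By direction, 0.834%, 0.11% and 0.124% of genes were called above input and 0.199%, 0.053% and 0.415% below it. DESeq2 also called 0 of 10 in each group, and S100a10 at 24 hours was the member under an unadjusted P of 0.05. The median log2 ratio of the members was -0.04, 0.05 and 0.07 in the 3 groups without pairing, and -0.24, -0.29 and -0.19 with the mouse as a replicate block, where 2, 2 and 4 members were above 0 in place of 4, 6 and 5. For Tm4sf1 the log2 ratio was -0.02 ± 0.21 in KA mice at 2 weeks (adjusted P from edgeR 0.999) and 0.03 ± 0.26 in KA mice at 24 hours (0.994). S100a10 had the largest ratio among the members in KA mice at 24 hours, at 0.75 ± 0.35 (adjusted P 0.518), and stood at 0.54 ± 0.27 (adjusted P 0.505) in KA mice at 2 weeks. Its m6A level was above the input level of the same mouse in 3 of 3 KA mice at 24 hours, by 1.198 to 2.66 times, and in 6 of 6 at 2 weeks, by 1.19 to 1.69 times. In PBS mice at 2 weeks this held in 2 of 3 mice. Such counts of mice were made for the members alone. Among all genes tested, the fitted S100a10 ratio stood at percentile 90.8 in KA mice at 24 hours and 77.2 in KA mice at 2 weeks. In PBS mice at 2 weeks it stood at percentile 39.1. Hspg2, Anxa2 and Fam129b showed the opposite sign in KA mice at 2 weeks, each below input in 5 of 6 mice. Their log2 ratios were -0.20 ± 0.61 (adjusted P from edgeR 0.964), -0.25 ± 0.29 (0.849) and -0.19 ± 0.42 (0.935). With the mouse as a replicate block, 0 members passed in KA mice at 2 weeks while the calls over all genes went from 234 to 1478. S100a10 was then at 0.56 ± 0.18 (adjusted P from edgeR 0.0658) and Hspg2 at -0.65 ± 0.24 (0.117). The labels name polyA RNA for the immunoprecipitation and total RNA for the input, and the effects of this and of m6A cannot be told apart. PBS mice at 24 hours had 1 deep input library, where the ratio was 1.07 for Tm4sf1 and 1.63 for S100a10.

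Within the 6 KA mice at 2 weeks, the m6A level of a member was compared with the input level of the same mouse by exact permutation tests, two-sided and adjusted over the 10 members. The relation was positive for 10 of 10 members, and 2 passed. It was computed for the members alone, so these counts have no share of all genes beside them. Both libraries of a mouse come from its own RNA, and the counts are not read as a result about the members. A different measure, taken across all genes within a mouse, correlated the deviations from group means between its libraries. It gave r from 0.13 to 0.37 in these mice. Hspg2 gave Pearson's r = 0.93 (exact permutation P = 0.00278, adjusted 0.0278) and Spearman's rho = 1.00 (0.00278, adjusted 0.0278), the smallest P that 6 mice allow. Fam129b gave r = 0.93 (exact permutation P = 0.00833, adjusted 0.0417) and rho = 0.94 (0.0167, adjusted 0.0833). For S100a10 r was 0.91 (exact permutation P = 0.0333, adjusted 0.111) and rho 0.71 (0.136, adjusted 0.227), and for Flnc r was 0.82 (0.05, adjusted 0.125) and rho 0.83 (0.0583, adjusted 0.146). Tm4sf1, which varied little among these mice, gave r = 0.47 (exact permutation P = 0.319, adjusted 0.355) and rho = 0.49 (0.356, adjusted 0.444). Without the 2 mice farthest from the median input level, r over the remaining 4 was 0.72 for Hspg2, 0.59 for Fam129b, 0.88 for S100a10, 0.96 for Flnc and 0.07 for Tm4sf1, and -0.55 for Jup, against 0.62 with all 6. With any mouse left out 0 members passed, and 5 mice cannot give a P below 0.0167 before adjustment.

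**Figure D5:**
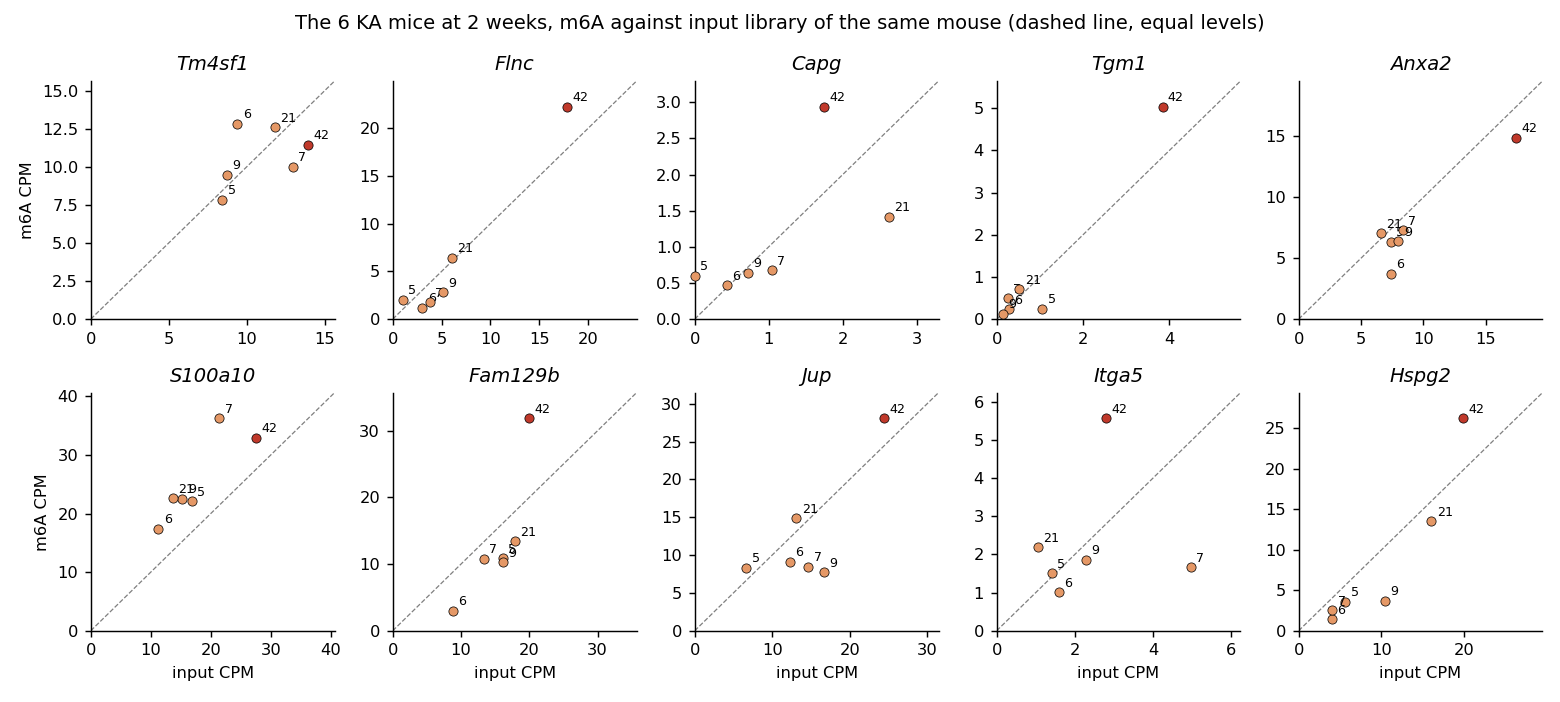
m6A level (y axis, CPM) against input level (x axis, CPM) of the same mouse for each member in the 6 KA mice at 2 weeks, on linear axes from 0 with 1 scaling for both library types; numbers are mice and the dashed line marks equal levels. Mouse 42 (red) lies at the upper right in most panels. All S100a10 points lie above the line, and 5 of 6 points lie below it for each of Hspg2, Anxa2 and Fam129b.

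The sequence letters GGACT, the best known core of the m6A consensus, were counted in the canonical transcripts. All 10 members held them at least 1 time, as did 88.9% of 21593 protein-coding genes. Tm4sf1 had the highest density of the members, 7 in 3200 bases or 2.19 per kb, followed by Anxa2 (3, 2.07 per kb) and Capg (3, 1.98 per kb), and Fam129b the lowest (2, 0.539 per kb). The median was 1.53 per kb over the members and 1.01 per kb over all genes. S100a10, with the highest fitted m6A to input ratio of the members in KA mice at 24 hours, held 4 (1.17 per kb), and no position of m6A was measured in these files.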

How the data were processed

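The authors deposited whole-number read counts per gene in 4 lanes per library, aligned to mm10 according to the submitters' processing notes. For the aligner and the counting tool, the name is not given in the sources used here. Lanes were summed, and 8 columns that matched no labelled sample were not used. Their names give input libraries of KA mouse 79 and PBS mouse 50. The assay was named in the columns of 8 libraries and read from the column prefix in 27. Input libraries under 100000 counts were left out. Counts were TMM-scaled and fitted with edgeR 4.0.16 (R 4.3.3, filterByExpr, robust quasi-likelihood F-test, all groups of an assay in 1 fit), with Benjamini-Hochberg adjustment over all genes and a threshold of 0.05. Log2 CPM for likeness used a prior count of 2. DESeq2 1.42.0, library size alone, other filters, only the groups compared, a library set block, all 16 labelled input libraries and leaving out each library were alternatives, and fits within library set 4 or 5 were added after seeing the data. The edgeR script was tested on simulated data.

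Members and lists were chosen with earlier results of these data known. All members were described. From each related list up to 3 genes past the threshold at each time in the m6A libraries were named, as were the 8 non-members most like Tm4sf1 with a mean of at least 1 CPM. The mouse number in the labels pairs the m6A and input libraries of the same mouse, and their deviations from group means correlated with r between 0.13 and 0.89 in KA mice and between -0.02 and 0.12 in PBS mice at 2 weeks. Replicates within a group and library type are separately numbered mice. Total counts ranged from 1652933 to 34564536 (m6A) and from 3057578 to 12694434 (input with enough depth), so that 3 counts, the floor used, corresponded to at most 1.81 CPM in m6A libraries.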

Additional observations from a re-analysis of the deposited data

Results flagged for a closer look

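In 9 of the 40 combinations of member and group that were large enough, a mouse lay far from the others of its group by Dixon's criterion, which chance meets in about 1 in 20 groups. KA mouse 42 at 2 weeks accounted for 7 of the 9. In its m6A library Flnc was at 21.8 CPM (next mouse 6.71 CPM), Anxa2 at 14.6 CPM (7.64 CPM), Itga5 at 5.45 CPM (2.28 CPM) and Tgm1 at 4.94 CPM (0.739 CPM). In its input library Flnc was at 16.3 CPM (5.53 CPM), Anxa2 at 15.98 CPM (7.43 CPM) and Tgm1 at 3.52 CPM (0.978 CPM). The high values of this mouse were thus present in both of its libraries for Flnc, Anxa2 and Tgm1. At 24 hours S100a10 stood at 101.2 CPM in the m6A library of KA mouse 8 (next mouse 43.6 CPM), the mouse with 16.4% mitochondrial counts, and Anxa2 at 31.6 CPM in that of KA mouse 67 (18.3 CPM). The cause of these values was not tested.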

How the results depend on the processing

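Of the summary values, 203 stayed within their spread or within 1.5 times under the alternatives and 21 moved. The medians of m6A over input, near 0, changed sign: with the mouse as a replicate block from 0.05 to -0.29 (KA, 24 hours) and from 0.07 to -0.19 (PBS, 2 weeks), and with library size alone from -0.04 to 0.08 (KA, 2 weeks), where the median of all genes moved from 0.09 to 0.23. In KA mice at 24 hours the median was also below 0 with only the groups compared (-0.02) and with DESeq2 (-0.0026), and leaving out a library gave -0.20 to 0.40 there, -0.61 to 0.06 in KA mice and -0.02 to 0.16 in PBS mice at 2 weeks. In m6A libraries at 24 hours the members called went from 3 to 6 with DESeq2, to 1 with only the groups compared, to 6 within library set 4, and to between 1 and 3 when a library was left out. In input libraries at 24 hours, with 1 PBS library, calls are not given. The median log2 fold change of the members there was 3.00, and between 2.72 and 3.12 when a KA library was left out. The PBS library at that time could not be left out. The same-mouse relation went from 2 members to 0 without any mouse. The cause of these moves was not tested, except that fewer mice raise the smallest P.

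Over all genes, calls in m6A libraries at 24 hours went from 31 to 202 with DESeq2, 1 with only the groups compared, 65 with the library set block, 356 within set 4 and 1 to 34 leaving out a library. At 2 weeks they went from 1 to 15 with DESeq2. In input libraries at 2 weeks DESeq2 called 44 genes, against 0 with edgeR. With the mouse as a replicate block, m6A over input calls went from 234 to 1478 (KA, 2 weeks), 37 to 42 (KA, 24 hours) and 122 to 391 (PBS, 2 weeks), with 0 members called in each, and the pairing changed no call of a member. DESeq2 gave 650, 395 and 580 and library size alone 579, 573 and 249. Only the groups compared gave 407 in KA mice at 2 weeks and 0 at 24 hours. Leaving out a library gave 100 to 296, 1 to 575 and 37 to 137. Low counts limited Capg and Tgm1, and a single PBS input library limited the 24-hour comparison.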
